A study of Homo sapiens with 4 samples.

Results

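CEBPB binding was examined across the epidermal differentiation complex of chromosome 1, a cluster of genes for skin barrier and S100 proteins, in the human colon epithelial cell line NCM460. The window ran from 150.9 to 154.1 Mb of the hg19 build, inside band 1q21.3. It comprised the complex, from 151.95 to 153.75 Mb, with a lower flank of 1.05 Mb and an upper flank of 0.35 Mb. Members were chosen by position alone, as every interval whose summit lay in the window. Replicate 1 contributed 153 of its 75169 peaks and replicate 2 contributed 170 of its 97829. A deposited table from the authors lists regions that rank alike in both replicates by irreproducible discovery rate (IDR), called reproducible regions here. The window held 46 of the 25602 distinct ones on chromosomes 1 to 22 and X. Of these regions, 19 lay in the complex and 27 in the flanks.

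The samples were 2 chromatin immunoprecipitations with an antibody to CEBPB and 2 input samples, all of NCM460 cells for which the labels name no treatment, and the replicates are described as independent experiments. The inputs entered only as the background over which peaks were called. Fold below is the authors' enrichment of the pileup at a summit over that background. Fragments are the extended reads stacked at the summit, recovered from the deposited fold and p-value, and background is given in expected fragments on the scaled pileup. Each ± is the SD over the 2 replicates.

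The epidermal differentiation complex encodes the proteins that keratinocytes cross-link into the cornified envelope, among them involucrin (IVL), loricrin (LORICRIN), the small proline-rich SPRR proteins and the late cornified envelope LCE proteins. It also encodes filaggrin (FLG) and its relatives, which bundle keratin filaments, and most members of the S100 family of calcium-binding proteins. S100A8 and S100A9 pair to form calprotectin, an antimicrobial protein of neutrophils that stressed epithelia also make and that is measured in stool as a marker of gut inflammation. C/EBP factors are basic leucine zipper proteins that act in the differentiation of keratinocytes and myeloid cells. In the RefSeq gene table of GRCh38.p14, 63 protein-coding genes run from S100A10 to S100A1, of which 16 are S100 genes and 39 belong to a list of envelope, filaggrin-type and adjoining genes. That table is of another build and gives names and order here, not positions.

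Strong binding lay beside the S100A8 start and between S100A9 and S100A8, whereas a long stretch upstream of S100A9 held no reproducible region. The start of S100A9 lies at position 153330330 of chromosome 1 in the hg19 model used here, on the plus strand, with exons at 153330330 to 153330357, 153330745 to 153330909 and 153333120 to 153333503. The start of S100A8 was known to the nearest kb, at 153364000. Their promoters are shown because a CEBPB peak covered the S100A9 start and another lay 0.3 kb from the rounded S100A8 start. Each line gives the 250 bases before a start in RefSeq (GRCh38.p14, gene strand, 5′ to 3′), with matches to the pattern TTGCNNCA on either strand in capitals. For S100A8 it is the second of 3 starts in that table.

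S100A9: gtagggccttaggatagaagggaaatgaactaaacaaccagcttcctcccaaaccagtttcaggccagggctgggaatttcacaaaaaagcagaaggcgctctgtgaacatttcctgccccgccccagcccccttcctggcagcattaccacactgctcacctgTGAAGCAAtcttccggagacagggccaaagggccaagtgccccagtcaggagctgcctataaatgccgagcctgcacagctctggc

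S100A8: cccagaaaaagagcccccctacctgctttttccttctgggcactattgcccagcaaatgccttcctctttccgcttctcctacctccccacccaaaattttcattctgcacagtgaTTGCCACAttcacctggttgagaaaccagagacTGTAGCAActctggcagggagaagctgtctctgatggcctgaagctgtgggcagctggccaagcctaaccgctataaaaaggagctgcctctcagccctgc

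The C/EBP consensus TTGCGCAA and the looser TTGCNNAA, which contains it, were searched on both strands. Neither matched in the promoters of S100A9 or S100A8, at any of the 3 starts of the second gene. They occur in 0.13% and 9.05% of the 35116 promoters of the table. TTGCNNCA, a related pattern, was added after these letters had been read, and 8.96% of the promoters hold it. The match before S100A9 lies 86 to 79 bases upstream of its RefSeq start. Before S100A8, the matches lie 134 to 127 and 101 to 94 bases upstream of the start shown. A match describes these letters and does not mark a bound site.

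At the S100A9 start itself a peak lay at the same place in both replicates. In replicate 1 it spanned chr1:153330171-153330354 with a fold of 7.44 and 18 fragments over a background of 1.38. In replicate 2 it spanned chr1:153330150-153330353 with a fold of 6.998 and 25 fragments over a background of 2.00. The summits stood 83 and 82 bp upstream of the start, and the peaks reached 25 and 24 bp into the transcript, inside its noncoding exon 1. Of all peaks in the lists, 47.7% in replicate 1 and 46.7% in replicate 2 had a higher fold, so the peak was of ordinary height, and it was not among the reproducible regions. The summit distances are from the hg19 start and the motif distances from the RefSeq start of another build, and the offset between these starts was not measured.

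The strongest site of the complex lay between S100A9 and S100A8, at chr1:153347887-153348380. Its fold was 47.0 in replicate 1 and 43.3 in replicate 2 (45.2 ± 2.68, SD, n = 2), with 174 and 171 fragments over backgrounds of 2.45 and 2.18. It ranked at place 337 of the 25602 reproducible regions by mean fold, within the strongest 1.32%. The summits, 5 bp apart, stood 17.8 kb downstream of the S100A9 start and 15.8 kb from the S100A8 start. S100A12, another calcium-binding protein of neutrophils, is the 1 protein-coding gene between S100A9 and S100A8 in the RefSeq order. Whether the site touches S100A12 was not determined, since no hg19 model of that gene was used.

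The site beside the S100A8 start, chr1:153363489-153363939, had folds of 34.6 and 33.8 (34.2 ± 0.51, SD, n = 2). Its fragments were 99 in replicate 1 and 168 in replicate 2, over backgrounds of 1.68 and 3.00, so the folds were alike although the fragment counts were not. Fragments are not adjusted for depth. The depth implied for replicate 1 was 0.637 times that of replicate 2, at equal fragment length. The difference in fragments did not pass the test against regions of like height (exact binomial test, adjusted p = 0.134). This site held place 1555 among all reproducible regions. Its distance from the S100A8 start is smaller than the rounding of that start.

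A weaker reproducible region, chr1:153321171-153321563, lay 8.9 kb upstream of S100A9. It had folds of 14.4 and 9.79 (12.1 ± 3.25, SD, n = 2) and 30 and 32 fragments. Beyond S100A9, at 7.6 kb, both replicates had a faint peak with folds of 4.66 and 4.07, and at 10.8 kb another with folds of 6.05 and 8.23. Neither was a reproducible region. On the side away from S100A9, where S100A7A and S100A7 come next in gene order, neither replicate had a summit within 50 kb past the S100A8 start. One further peak within 50 kb upstream of S100A9, at chr1:153285479-153285668, was called in replicate 1 alone, with a fold of 6.05 and 12 fragments.

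**Figure D1:**
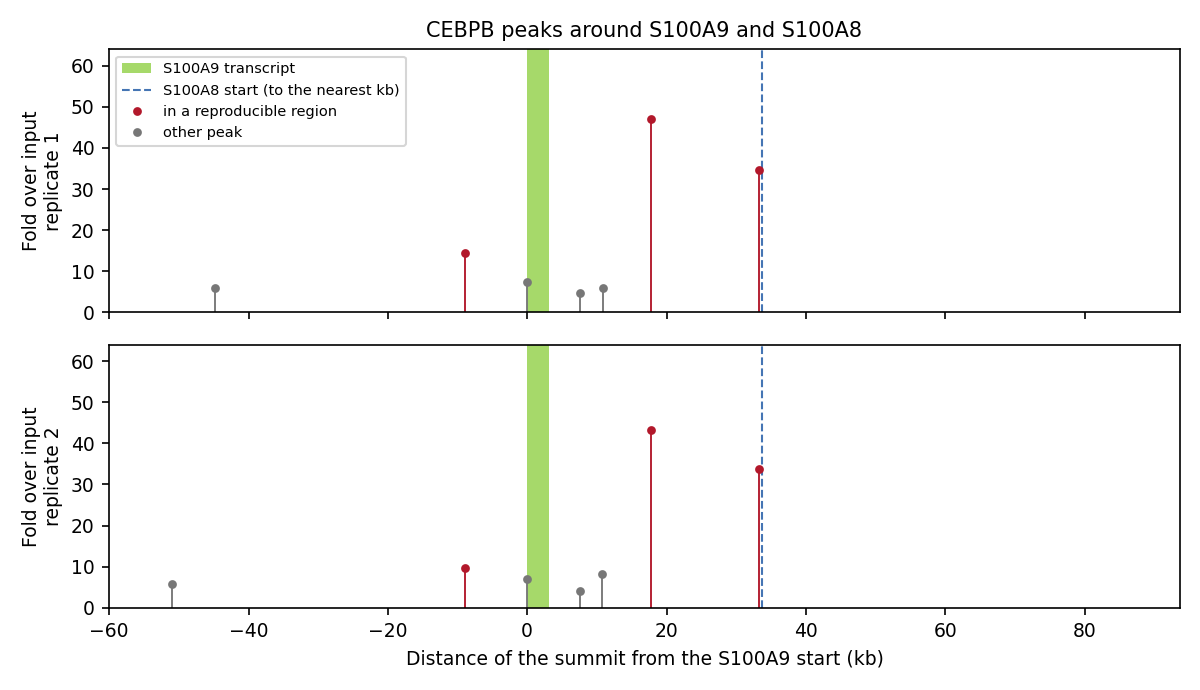
Authors' fold over input at each peak (vertical axis) against the distance of its summit from the S100A9 start in kb (horizontal axis), with replicate 1 above replicate 2. Red points lie in a reproducible region and grey points do not. In both replicates the tall site between S100A9 and S100A8 (47.0 and 43.3) and the site beside the S100A8 start (34.6 and 33.8) stand above the peak at the S100A9 start (7.44 and 6.998).

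Between the region at chr1:152434107-152434408 and the one 8.9 kb upstream of S100A9, no reproducible region was found over 887.2 kb, which is 49.3% of the complex. The stretch ran from 896 kb to 8.9 kb upstream of the S100A9 start. Going away from S100A9 on that side, the RefSeq order places PGLYRP4 and PGLYRP3, whose products recognise bacterial cell walls, then LORICRIN, the SPRR genes, IVL and the LCE genes. How many of them fall inside the stretch was not determined. The region at its lower end was itself weak, with folds of 10.2 and 12.0 and 32 and 59 fragments.

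Few peaks of any kind were called inside the stretch. Replicate 1 had 4, or 4.51 per Mb (95% exact Poisson interval 1.23 to 11.5), and replicate 2 had 8, or 9.02 per Mb (3.89 to 17.8). Over chromosomes 1 to 22 and X the lists held 24.8 and 32.2 peaks per Mb. The stretch was chosen for holding no reproducible region, and those regions come from the same peak lists. A low density of peaks was thus partly fixed by that choice, and the intervals do not test it. Peaks at the same place in both replicates numbered 2. At chr1:152670627-152670807 the folds were 5.89 and 8.57, with 18 and 24 fragments. At chr1:153005489-153005726 they were 14.8 and 5.51, with 31 and 15 fragments.

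The input background at these peaks was low. It stood at the lowest value the peak caller assigns, its genome-wide floor, at 2 of the 4 peaks that replicate 1 had there and at 6 of the 8 in replicate 2. Over all peaks the shares at the floor were 11.4% and 17.8%. LCE and SPRR genes are families of similar copies, and the sources used here do not say how reads that match several copies were treated. The part of mappability in the empty stretch was not tested. Of 25461 intervals between neighbouring reproducible regions outside centromeric, variable and stalk bands, 414 (1.63%) were at least as long, and of 13162 wholly inside Giemsa-negative bands, as this one is, 72 (0.55%) were. The stretch was singled out as the longest of the complex, so these shares describe it and test nothing.

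**Figure D2:**
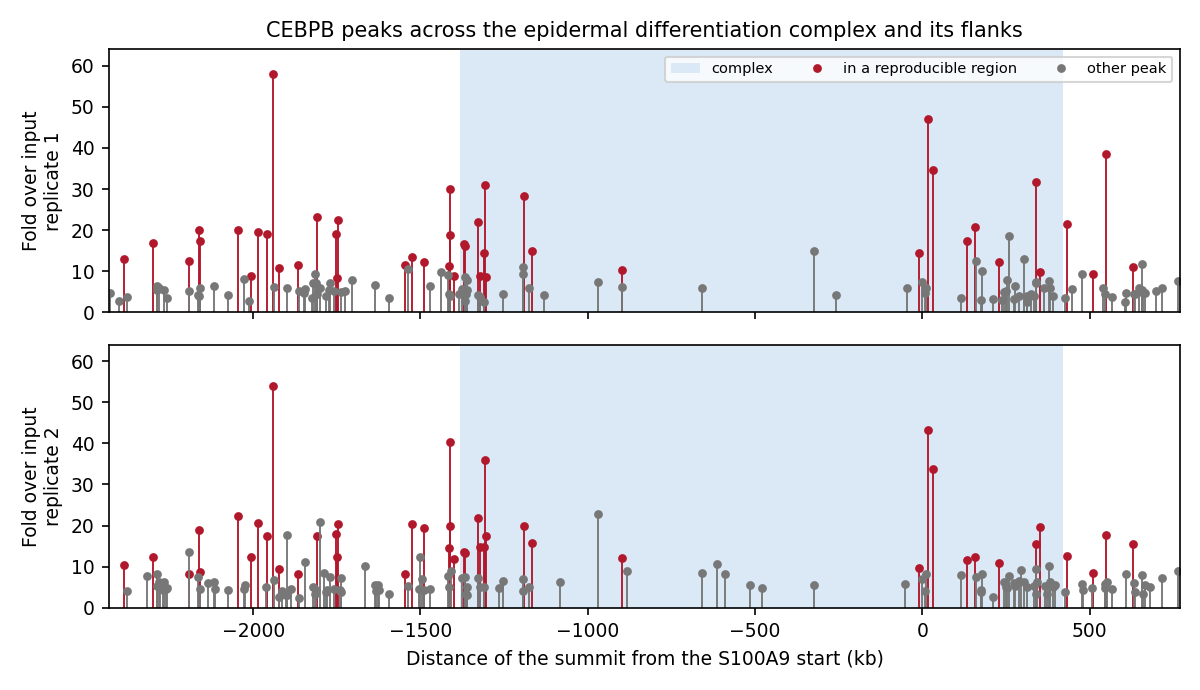
Authors' fold over input at each peak (vertical axis) against the distance of its summit from the S100A9 start in kb (horizontal axis), with replicate 1 above replicate 2 and the complex shaded. Red points lie in a reproducible region. Within the complex, red points cluster at both ends and leave a stretch of 887.2 kb upstream of S100A9 without any.

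Below the empty stretch, the lower end of the complex held 10 reproducible regions in 484.3 kb. S100A10, the annexin A2 partner, and S100A11 come at this end of the gene order, followed by the trichohyalin and filaggrin genes. The strongest region there was chr1:152021907-152022528, with folds of 30.9 and 36.0 (33.4 ± 3.61, SD, n = 2) and 124 and 156 fragments. It belonged to a group of 3 regions within 4.1 kb, whose mean folds ran from 13.1 to 33.4. The neighbouring member at chr1:152020262-152021648, 1387 bp wide, was the widest region of the window and had folds of 14.5 and 14.7.

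The region at chr1:152140042-152140924 had folds of 28.3 and 19.9 (24.1 ± 5.97, SD, n = 2) with 123 fragments in each replicate, over backgrounds of 3.06 and 4.0. At chr1:152001702-152002056 the folds were 21.95 and 21.84 (21.9 ± 0.08, SD, n = 2) with 70 and 108 fragments. Equal folds here came with unequal fragments, and equal fragments with unequal folds. The fold depends on the background, so a difference in fold between the replicates need not be one in fragments.

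Above the empty stretch, the S100 end of the complex held 9 reproducible regions in 428.6 kb, the region at the boundary and both sites near S100A8 included. Peaks were dense there, with 35 in replicate 1, or 81.7 per Mb (95% exact Poisson interval 56.9 to 114), and 37 in replicate 2, or 86.3 per Mb (60.8 to 119). Most of them were low: their median fold was 6.52 and 6.34. At the lower end of the complex, replicate 1 had 53.7 peaks per Mb and replicate 2 had 51.6.

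Beyond the sites near S100A8, the highest mean fold at this end was at chr1:153671408-153672142, where replicate 1 had a fold of 31.6 and replicate 2 a fold of 15.5 (23.6 ± 11.4, SD, n = 2). The regions at chr1:153462720-153463578 and chr1:153488310-153488756 had mean folds of 14.5 and 16.6. A pair of regions with summits 0.4 kb apart, at chr1:153560294-153560543 and chr1:153560655-153560985, rested on the same peak of replicate 1 (fold 12.4, 39 fragments) and on separate summits of replicate 2, with folds of 10.9 and 10.8. They are therefore not independent entries.

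Some sizeable peaks of the complex were not among the reproducible regions. Chosen after their values were seen, the strongest of them in each replicate lay at opposite ends. At chr1:153588779-153589042 replicate 1 had a fold of 18.5 and 68 fragments, whereas the partner in replicate 2 had 7.82 and 77 fragments over a background of 7.0. At chr1:152361336-152361686 replicate 2 had a fold of 22.8 and 66 fragments over the floor of 1.36, whereas the partner in replicate 1 had 7.44 and 23 fragments.

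To compare the complex with its flanks, sites were counted per Mb. The complex held 10.6 reproducible regions per Mb (95% exact Poisson interval 6.36 to 16.5) and the flanks 19.3 (12.7 to 28.1). The ratio of complex to flanks was 0.547 (exact interval 0.288 to 1.02; two-sided exact conditional test of the counts, p = 0.0523, adjusted p = 0.0523 over 3 comparisons), which missed the threshold of 0.05. In the peak lists the ratio was nearly the same and passed the test. In replicate 1 the complex had 36.1 peaks per Mb and the flanks 62.9 (ratio 0.574, interval 0.410 to 0.801, exact p = 0.00078, adjusted p = 0.00117). In replicate 2 the complex had 38.9 and the flanks 71.4 (ratio 0.544, interval 0.395 to 0.746, exact p = 9.94e-05, adjusted p = 0.000298). Sites cluster, so these intervals and p-values cover counting error only and are too narrow.

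The lower density of the complex went with its empty stretch. Outside that stretch, 19 reproducible regions in 912.8 kb gave 20.8 per Mb (12.5 to 32.5), against 19.3 in the flanks. The stretch was chosen for holding no region, so this value has no test. The flanks kept their own longest stretch without a region, of 198.4 kb, so the comparison is not like for like. The reference for the ratio also mattered: the lower flank had 21.9 regions per Mb and the upper flank 11.4, from 4 regions. Widening the complex by 100 kb at both ends gave a ratio of 0.714 (exact p = 0.287), with 25 regions inside and 21 outside. The regions taken in came from both flanks and included a group of 3 in the lower flank.

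The rest of band 1q21.3 outside the window held 21.33 reproducible regions per Mb, chromosome 1 held 9.85 and chromosomes 1 to 22 and X held 8.43. The complex was thus near the chromosome, and its surroundings in the band were denser. The chromosomes were also cut into tiles of 1.8 Mb, leaving out those that touch centromeric, variable or stalk bands. Of the 1535 tiles kept, 931 (60.7%) held fewer regions than the 19 of the complex, and the median tile held 15.

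**Figure D3:**
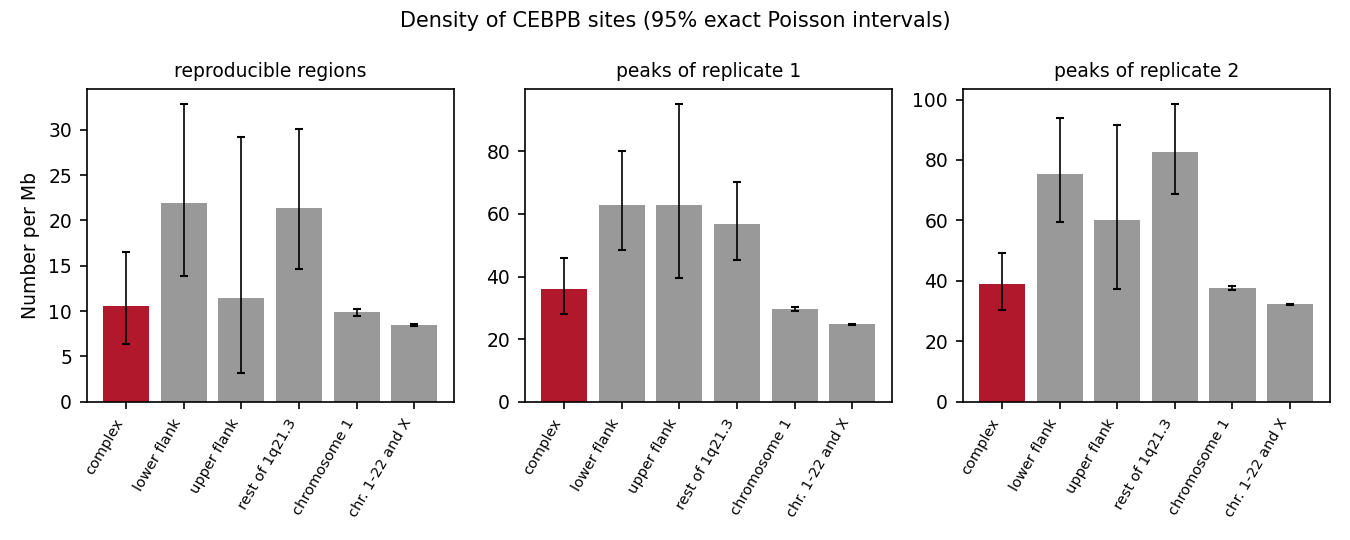
Number of sites per Mb (vertical axis, with a scale of its own in each panel) in the complex, both flanks, the rest of band 1q21.3, chromosome 1 and chromosomes 1 to 22 and X, for reproducible regions and for the peaks of each replicate. Bars start at 0 and lines are 95% exact Poisson intervals. In the peak lists the complex (36.1 and 38.9) lies below the flanks (62.9 and 71.4 together).

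The lower flank carried the strongest site of the whole window, at chr1:151388729-151389124. Its folds were 58.1 and 53.9 (56.0 ± 2.92, SD, n = 2), with 215 and 224 fragments, and it held place 55 of 25602. The region at chr1:151918721-151919224, a little below the edge of the complex, had folds of 30.0 and 40.4 (35.2 ± 7.31, SD, n = 2) and belonged to a group of 3 regions within 1.8 kb. In the upper flank, chr1:153880741-153881188 had folds of 38.6 and 17.8 (28.2 ± 14.7, SD, n = 2). With chr1:151583767-151584466 in the lower flank, at a mean fold of 21.4, these 4 and the 6 strongest of the complex made up the 10 strongest regions of the window. Among the strongest 10% of all reproducible regions, the complex had 3 of its 19 and the flanks 2 of their 27.

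As a set, the regions of the complex were of middling height by fold and tall by fragments. The median of the mean fold was 14.7 in the complex (lowest 11.1, highest 45.2), 15.8 in the flanks (8.93 to 56.0) and 15.8 over all reproducible regions. Median fragments in replicate 1 were 93 in the complex, 69 in the flanks and 58 over all regions. In replicate 2 they were 110, 90 and 76. The input background at these regions was higher than usual as well. Its median was 3.37 in the complex, 3.00 in the flanks and 2.17 over all regions in replicate 1, and 4.0, 3.43 and 2.68 in replicate 2. The part of this background in the difference between fold and fragments was not tested, and sites are not replicates, so no test of the medians was made.

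Peaks of the complex were about as often reproducible as those of the flanks. In replicate 1, 18 of 65 peaks of the complex (27.7%, 95% exact binomial interval 17.3 to 40.2%) were in the IDR table, and 27 of 88 in the flanks (30.7%), against 34.2% of all peaks. In replicate 2 it was 18 of 70 (25.7%, 16.0 to 37.6%) and 27 of 100 (27.0%), against 26.3% of all peaks. Fisher's exact test gave p = 0.723 and p = 1 (two-sided; adjusted p = 0.868 and 1 over 6 tests), and the intervals leave room for sizeable differences in either direction.

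Overlap with any peak of the other replicate was seen for 55 of 65 peaks of the complex (84.6%) and 68 of 88 of the flanks (77.3%) in replicate 1, against 82.0% of all peaks. In replicate 2 it was 54 of 70 (77.1%) and 68 of 100 (68.0%), against 62.8%. Neither difference passed Fisher's exact test (adjusted p = 0.459 and 0.454). Background at the floor was more frequent in the complex than in the flanks in replicate 2, at 10 of 70 peaks (14.3%) against 2 of 100 in the flanks (2.00%; Fisher's exact test, p = 0.00396, adjusted p = 0.0238), beside 17.8% of all peaks. In replicate 1 it was 5 of 65 (7.69%) and 2 of 88 (2.27%; exact p = 0.136, adjusted p = 0.408), beside 11.4% of all peaks. In both replicates the share in the complex was thus below that of all peaks, and the share in the flanks further below it. Of these peaks of the complex, 2 in replicate 1 and 6 in replicate 2 lay in the empty stretch. The flanks were not alike in this share. The upper flank had 2 of 22 peaks at the floor in replicate 1 (9.09%) and 2 of 21 in replicate 2 (9.52%). The lower flank had 0 of 66 and 0 of 79. Peaks cluster, so Fisher's exact test covers counting error only here, and its p-values are too small.

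The strongest peaks without any partner in the other replicate were in the lower flank. In replicate 1 it was chr1:151891748-151892101, with a fold of 9.88 and 21 fragments. In replicate 2 it was chr1:151829243-151829497, with a fold of 12.4 and 41 fragments. Peaks without a partner numbered 30 and 48 in the window, with median folds of 4.49 and 5.12.

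Neighbours were common in the complex: 11 of its 19 regions (57.9%) had another reproducible region within 10 kb, and 8 of the 27 in the flanks (29.6%) did, beside 34.8% of all regions. The 11 include the pair at chr1:153560294-153560543 and chr1:153560655-153560985, which rests on the same peak of replicate 1. The difference was not tested.

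The fragments of both replicates were compared at each reproducible region with a two-sided exact binomial test against the share of replicate 1 in regions of like height, adjusted over all 25602 regions by the Benjamini-Hochberg method. In the window 3 of 46 regions (6 at an unadjusted p under 0.05) differed at an adjusted p of at most 0.05, beside 2.92% of all regions. All 3 had more fragments in replicate 1 than regions of like height, a direction found for 1.70% of all regions. In the complex it was chr1:153671408-153672142, with 148 and 115 fragments (exact test, adjusted p = 0.0212). In the lower flank chr1:151840226-151840612 had 104 and 72 fragments (exact test, adjusted p = 0.00731) and chr1:151172489-151172856 had 68 and 47 (adjusted p = 0.0213). The fold did not always go the same way. At chr1:151840226-151840612 it was 12.2 in replicate 1 and 19.3 in replicate 2, over backgrounds of 7.0 and 2.03. At chr1:151172489-151172856 it was 17.3 and 8.71, and at the region of the complex 31.6 and 15.5. These exact tests compare the 2 libraries and cover counting error only. None of the sites near S100A9 and S100A8 was among them.

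**Figure D4:**
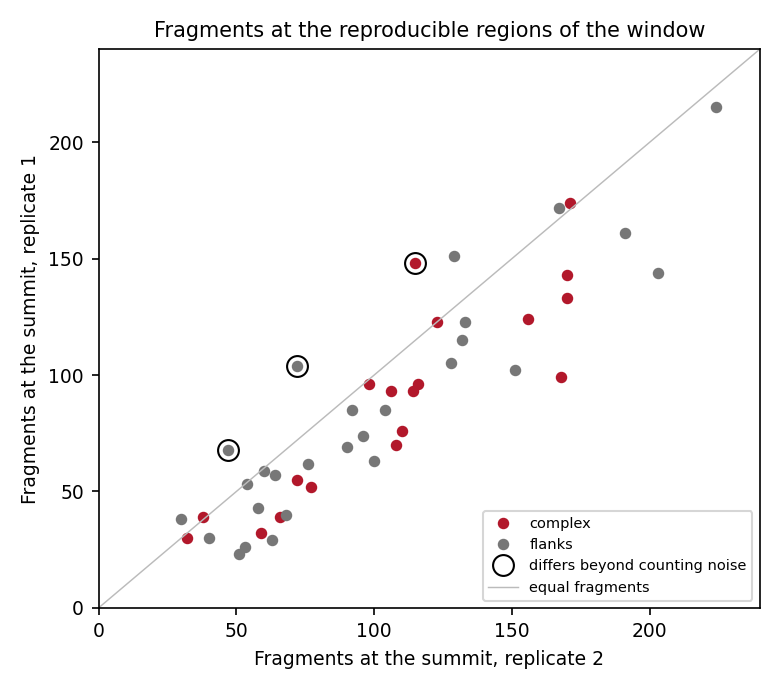
Fragments at the summit in replicate 1 (vertical axis) against replicate 2 (horizontal axis) at the 46 reproducible regions of the window, with the complex in red, the flanks in grey and a line of equal fragments. Fragments are not adjusted for the lower depth of replicate 1. Most regions lie below the line, and the 3 circled ones, which differ beyond counting noise, lie above it.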

How the data were processed

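CEBPB ChIP-seq of NCM460 cells was analysed from a peak list for each of 2 ChIP samples, with an irreproducible discovery rate (IDR) table for the pair. Input was the control, per the series' design text. The build hg19 and the tools MACS2 2.1.2 and Bowtie2 2.3.4, beside bedtools 2.25.0, SAMtools 1.9 and FastQC 0.11.7, are named in the submitters' processing notes; their settings and the handling of duplicates are not known here. The deposited fold and p-value follow the formulas of MACS2 with a separate list for each sample. The deposited lists give a score, a fold enrichment ratio and the −log10 of both p-value and q-value at each summit, with q of at most 0.05. The authors' deposited IDR table has a global IDR of at most 0.05 throughout and 20 columns; 2 columns of values per sample were not used. Its entries were matched by interval and summit to the lists, which supplied fold and p, and entries with the same interval were merged.

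Fragments were solved from the deposited fold and −log10 p, with 1 read worth 0.927 in the pileup of replicate 1 and 0.800 in that of replicate 2. The pileup was whole at 100% of summits within 0.005 on −log10 p, and 100% of simulated summits were recovered. The lists hold no read totals; the floors of 1.00 and 1.36 expected fragments and the scales imply a depth of replicate 1 of 0.637 times replicate 2, at equal fragment length. The fragment comparison used the running median over 1001 regions. On simulated data with 25602 regions and counting noise only, it recovered 94.5% of 200 regions changed 3-fold in odds, with 10 calls among the others.

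Bands of hg19 came from circlize 0.4.16, and the S100A9 model from the hg19 sample table in GenomicFeatures 1.54.1. The S100A8 start is a rounded position. The table of gene order holds all 16 S100 and all 39 envelope genes of the lists. By rule, named sites were the 10 strongest regions of the window by mean fold, all peaks within 50 kb of either start, the strongest unpartnered peak per replicate, called regions, and both ends of the longest empty stretch. Other sites named (at the S100 end, in groups, the widest region, the shared peaks inside the stretch and the strongest peaks outside the IDR table) were chosen after their values were seen. The window, lists and tests were chosen with earlier results of these data known. Calculations used SciPy 1.17.1, pandas 2.3.3 and NumPy 2.4.6 under Python 3.11.15, and plots matplotlib 3.10.9.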

Additional observations from a re-analysis of the deposited data

How the results depend on the processing

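The density ratio of complex to flanks, 0.547, stayed below 1 in all 8 settings. It passed the exact test against the rest of the band (0.519, p = 0.0104), against the lower flank alone (0.482, p = 0.0238) and with regions within 1 kb counted as 1 (0.498, p = 0.028). From the peaks of a single replicate it was 0.544 to 0.574, with p-values of 9.94e-05 and 0.00078. It did not pass against the upper flank alone (0.924), at an IDR of at most 0.01 (0.622) or with a widened complex (0.714). The mean difference in reproducible share of -2.14 percentage points turned to 8.24 with any overlap as the criterion, without passing the test either way. The ratio of median strength, 0.936 by fold, was 1.221 by fragments and 1.318 by −log10 p, and 0.952 to 0.957 when a replicate was left out; the cause was not tested. The counts of 3 differing regions and 3 regions near the S100A9 and S100A8 starts each became 2 at an IDR of at most 0.01. No paired analysis was possible because no groups of samples were compared: input reads served as the caller's background.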
